A study of Homo sapiens with 17 samples.

Results

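The mRNAs described here come from 6 highly expressed housekeeping genes: EEF1A1 and EEF2, which encode elongation factors of translation, HSP90AB1 and HSPA8, which encode cytosolic chaperones, and NCL and NPM1, which encode abundant nucleolar proteins. Peaks were taken from 11 eCLIP peak lists when their midpoint lay, on the gene's strand, inside the gene's hg19 span. This gave 930 of 389788 peaks, with 47 (AIFM1 replicate 1) to 133 (ZNF184 replicate 1) in a list.

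In eCLIP, RNA is crosslinked to bound proteins by ultraviolet light, 1 protein is immunoprecipitated, and its RNA fragments are sequenced beside a size-matched input taken from an equal stretch of gel without the antibody step. The cells were 293T, a human embryonic kidney line, irradiated on the plate with 400 mJ/cm2 at 254 nm, and the gel stretch reached 75 kDa above each protein. Libraries were made for AIFM1, NUMA1, RANGAP1, VIM and ZNF184 with 2 replicates each and for RNF219 with 1, all in unmodified 293T cells with no other treatment named, and each protein had its own input. The replicates are called biological with no further detail, so the p-values below measure the spread between these libraries, which may be partly technical. The 2 replicates of a protein share its input, so variation of the input is left out of that spread.

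Elongation factors carry aminoacyl-tRNA to the ribosome (EEF1A1) and move the ribosome along the mRNA (EEF2). HSP90AB1 and HSPA8 fold client proteins, nucleolin (NCL) binds ribosomal RNA precursors, and nucleophosmin (NPM1) takes part in ribosome assembly. Many mRNAs of the translation machinery begin with a C followed by a run of pyrimidines, the terminal oligopyrimidine tract, through which their translation responds to growth signals. Introns of several such genes also carry small nucleolar RNAs.

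The annotated first bases of the mRNAs are shown because a peak lay close to the 5′ end of EEF1A1 in all 11 lists. NCL also had a peak close to its 5′ end in all 11 lists, and the 5′-most EEF2 site had one in 3. A link between such peaks and the bases was not tested. Shown are the first 30 bases from the RefSeq transcription start in GRCh38.p14, a build other than that of the peaks. Capitals mark an uninterrupted run of C and T that begins with C at the first base and holds at least 4 further C or T.
EEF1A1 (chr6:73521003-73521032, minus strand): CTTTTTCgcaacgggtttgccgccagaaca
EEF2 (chr19:3985434-3985463, minus strand): CTCTTCCgccgtcgtcgccgccatcctcgg
NPM1 (chr5:171387849-171387878, plus strand): CTTTCCCTggtgtgattccgtcctgcgcgg
HSPA8 (chr11:123062107-123062136, minus strand): ctcattgaactcgcctgcagctcttgggtt
NCL (chr2:231464455-231464484, minus strand): agtctcgagctctcgctggccttcgggtgt
The run was 7 bases long in EEF1A1 and EEF2 and 8 in NPM1, and it was missing from the entries of HSPA8 and NCL. HSP90AB1 has 3 annotated starts, 1 of which begins with such a run of 5 bases, and NPM1 has 1 more start without it. In all, 4 of the 9 entries of the 6 genes held the run, against 1429 of 35116 RefSeq starts (4.07%). The RefSeq gene length equals that of the span used for peaks only in EEF1A1 and EEF2. It is 4974 against 4645 nt in HSPA8 and 10954 against 9747 nt in NCL, and it also differs in HSP90AB1 and NPM1. In these 4 genes an annotated start may thus not be the 5′ end of the span.

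The authors' lists give 2 values per peak, a log2 fold of eCLIP over size-matched input and the -log10 p of that fold. Peaks below input have a -log10 p of 0, and the largest deposited value is 400. Read numbers were recovered from the folds. For peaks below input only the least possible numbers are known, and reads are given as "at least" there. Input depth was between 0.534 (AIFM1 replicate 2) and 4.84 (VIM replicate 1) times eCLIP depth. Beside 1 input read a significant peak therefore needed 5 eCLIP reads in VIM replicate 1 and 23 in AIFM1 replicate 2, with the other lists between. Total reads per library are unknown, recovered reads can hold PCR copies, and intervals on single peaks cover counting error only.

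Peaks in the 6 genes were dense in input reads, and in most lists a larger share of them lay below input than of all peaks. Counting peaks below input at their least possible reads, their median was at least 27 input reads, against at least 3 for all peaks. On the same count, 74.3% or more of them had at least 10 input reads, against 19.1% or more of all peaks. Of the 930 peaks 39.5% lay below input, compared with 11.8% of all peaks. Significance required a -log10 p of 3 and a log2 fold of 3 (8-fold) or more. By that rule 13 of the 930 peaks (1.40%) were significant, against 9406 of all 389788 (2.41%).

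Significant peaks were found in 4 of the 11 lists. ZNF184 replicate 2 had 8 of its 120 peaks in these genes, where 4.82% of all its peaks were significant. ZNF184 replicate 1 had 1 of 133 (3.15% of all its peaks), RANGAP1 replicate 2 had 2 of 100 (2.99%) and RNF219 had 2 of 72 (0.926%). The other 7 lists had 0. In these, the share of all peaks that was significant was 0.216% and 0.214% in AIFM1, 1.51% and 0.877% in NUMA1, 1.52% in RANGAP1 replicate 1 and 5.29% and 4.5% in VIM. No site was significant in both replicates of a protein. Just inside the threshold stood an NPM1 peak of RNF219 at a log2 fold of 3.01, and just outside it an EEF1A1 peak of RNF219 at 2.99 with a -log10 p of 4.87. A further 4 peaks reached a log2 fold of 3 but not the p, all on 1 or 2 input reads. Merging peaks that overlapped on a strand gave 171 sites, of which 11 had a peak in all 11 lists, 40 in a single list and 12 a significant peak. Adjacent peaks of a site can be pieces of the same signal and then carry almost the same value.

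**Figure D1:**
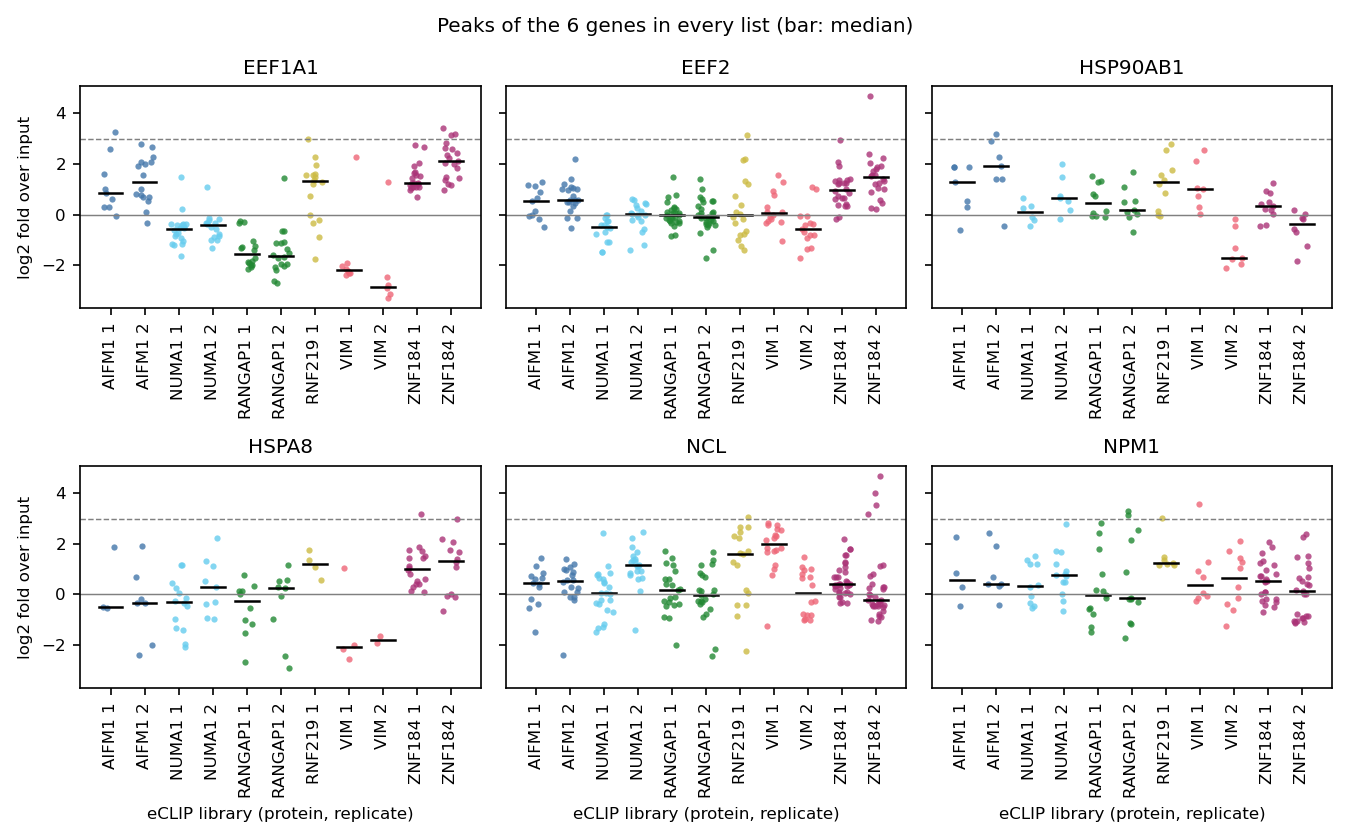
Log2 fold over size-matched input (vertical axis) of every peak in the 6 genes, by eCLIP library (horizontal axis, protein and replicate number). Points are peaks, black bars are medians, the solid line marks input and the dashed line the significance threshold of 3. EEF1A1 points of both VIM libraries sit below input except 1 in each, and all EEF1A1 points of both ZNF184 libraries sit above it.

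EEF1A1, the factor that brings aminoacyl-tRNA to the ribosome, varied most between libraries. Its median log2 fold was -2.20 and -2.86 in VIM, -1.56 and -1.64 in RANGAP1 and -0.57 and -0.43 in NUMA1, so these 3 proteins lay below input in both replicates. ZNF184 gave 1.25 and 2.11, RNF219 1.33 and AIFM1 0.87 and 1.28, all above input. On the centred scale defined below its libraries spanned 5.88, the widest span of the 6 genes. Peaks per list ran between 6 (VIM replicate 2) and 20 (NUMA1 replicate 1 and ZNF184 replicate 1).

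To compare proteins, each gene's median was set relative to the median of all peaks in the same library, and limma was fitted over 1381 features with a peak in every list: the 6 genes and 10-kb strand windows elsewhere. Each protein was compared with the mean of the other 5, with Benjamini-Hochberg adjustment over all features. RNF219 has 1 library and is assumed to vary like the rest. Since each protein has its own input, the protein and its input cannot be told apart in these differences.

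On this centred log2 scale EEF1A1 averaged -4.76 ± 0.41 in VIM (SD, n = 2), against -3.05 to 0.82 in the 9 other libraries. The difference of VIM from the other proteins was -3.97 (limma, 95% interval -4.79 to -3.16, adjusted p = 3.17e-05), the lowest of the 1381 features in that comparison. RANGAP1 was also lower, by -1.77 (interval -2.58 to -0.96, limma, adjusted p = 0.0144), with 0.941% of features further down. ZNF184 was higher by 2.25 (1.44 to 3.07, limma, adjusted p = 0.00104), RNF219 by 2.05 (0.97 to 3.13, limma, adjusted p = 0.0110) and AIFM1 by 1.92 (1.11 to 2.73, limma, adjusted p = 0.00611). NUMA1 differed by -0.48 and did not pass (interval -1.29 to 0.33, limma, adjusted p = 0.477). The 6 differences are not independent, since each protein is among the others of the rest.

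The VIM and ZNF184 differences of EEF1A1 passed under each of the 15 alternatives in which EEF1A1 was tested. That of RNF219 did too, but none of these could leave out its only library. That of AIFM1 was lost without AIFM1 replicate 2 (1.47, limma, adjusted p = 0.131). That of RANGAP1 was lost without its replicate 1 (-1.90, limma, adjusted p = 0.104) or its replicate 2 (-1.64, limma, adjusted p = 0.301).

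Input reads moved with the EEF1A1 values. The median EEF1A1 peak had at least 89 and 88.5 input reads in VIM, at least 101 and 92.5 in RANGAP1 and at least 68 and 53 in NUMA1, compared with 11 and 10 in ZNF184, 7 in RNF219 and 2 in each AIFM1 library. Their part in the result was not tested. The fit was repeated on sites with a peak in all 11 lists, a choice made after the values were seen. In EEF1A1 these sites begin 3 nt and 2767 nt from the 5′ end of the span. There the VIM difference was -4.34, that of RANGAP1 -1.75 and that of NUMA1 -0.81. AIFM1 had 2.84, ZNF184 2.79 and RNF219 1.28.

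**Figure D2:**
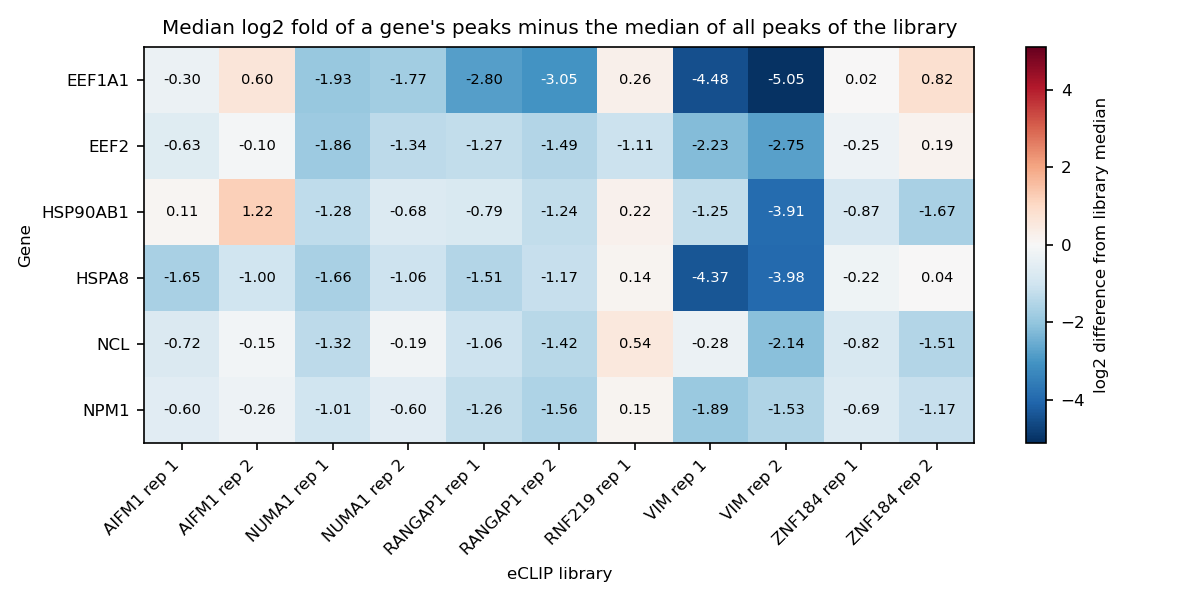
Centred median log2 fold of each gene (rows) in each eCLIP library (columns), that is the median log2 fold of the gene's peaks minus the median of all peaks of the library. Blue is below and red above the library's median. EEF1A1 and HSPA8 in VIM are the darkest blue cells, with -4.48, -5.05, -4.37 and -3.98, beside HSP90AB1 in VIM replicate 2 at -3.91.

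At the 5′-most EEF1A1 site, VIM was again the lowest protein. The site spans chr6:74230713-74230752 in hg19, on the minus strand, is 40 nt long and begins 3 nt from the 5′ end of the span. Whether the annotated starts of the builds coincide was not tested. If they do, the site overlaps the later bases of the 7-base run printed above but not its first 3. Its log2 fold there, taken as the highest piece in a library, was -2.33 and -3.30 in VIM, -0.24 and -0.66 in RANGAP1 and -0.43 and -0.36 in NUMA1. The values were 2.68 and 3.20 in ZNF184, 3.28 and 2.10 in AIFM1 and 1.30 in RNF219. The 3.28 of AIFM1 replicate 1 was not significant, in a library whose median EEF1A1 peak had 2 input reads. The VIM replicate 2 piece, at least 3 eCLIP reads beside at least 97 input reads, was the lowest of all EEF1A1 peaks. A site at 2767 nt, also present in all lists, had -1.90 and -2.46 in VIM, -1.42 and -1.94 in RANGAP1, 1.63 and 2.36 in ZNF184 and 1.60 and 1.90 in AIFM1.

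The site at 394 nt (hg19 chr6:74230299-74230361, minus strand) differed from these. There VIM lay above input at 2.27 and 1.30, as did RANGAP1 replicate 2 (1.47) and both libraries of NUMA1 (0.23 and 1.11), ZNF184 (1.93 and 3.42) and AIFM1 (1.02 and 0.76). The median of all peaks was 2.27 in VIM replicate 1 and 2.20 in VIM replicate 2. Neither VIM value at this site exceeded the median of its library. The site held the EEF1A1 peak with the highest significant fold, with 21 eCLIP reads beside 3 input reads in ZNF184 replicate 2 (log2 fold 3.42, 95% interval 1.68 to 5.81). The other significant EEF1A1 peaks were also of ZNF184 replicate 2. At the 5′ site there were 42 reads beside 7 (3.20), and at 975 nt 41 beside 7 (3.16). ZNF184 replicate 1 stood at 2.68 and 2.77 at these sites, short of the threshold.

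EEF2, the factor that moves the ribosome along the mRNA, varied less. Its median log2 fold was 0.98 and 1.48 in ZNF184 and 0.05 and -0.56 in VIM. AIFM1 gave 0.54 and 0.58, RANGAP1 -0.03 and -0.08, NUMA1 -0.50 and 0.01 and RNF219 -0.04. On this scale both ZNF184 libraries were above the other 9. On the centred scale VIM averaged -2.49 ± 0.37 (SD, n = 2) against -1.86 to 0.19 in the other libraries, a difference of -1.59 (-2.35 to -0.84, limma, adjusted p = 0.00446). ZNF184 averaged -0.03 ± 0.31 (SD, n = 2) against -2.75 to -0.10, a difference of 1.36 (0.60 to 2.12, limma, adjusted p = 0.0118). Neither difference was extreme among all features, of which 15.1% were lower than EEF2 in the VIM comparison and 79.9% in that of ZNF184. The VIM call was lost without VIM replicate 2 (-1.33, limma, adjusted p = 0.0615), without centring (-0.55, limma, adjusted p = 0.204) and on peaks with at least 10 input reads (-0.73, limma, adjusted p = 0.123). That of ZNF184 was lost without ZNF184 replicate 2 (1.14, limma, adjusted p = 0.151).

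A site 2913 nt into EEF2 held its highest peak. Whether the site lies on SNORD37, which RefSeq places inside EEF2, was not tested. In hg19 the peak is chr19:3982507-3982542 on the minus strand, with 101 eCLIP reads beside 6 input reads in ZNF184 replicate 2 (log2 fold 4.69, interval 3.51 to 6.17). At that site ZNF184 replicate 1 had 2.95 (34 beside 6 reads) and RNF219 2.22, compared with -0.53 in NUMA1 replicate 1, -1.71 in RANGAP1 replicate 2 and -1.35 in VIM replicate 2, and the other 5 lists had no peak. The other significant EEF2 peak was of RNF219 at 4040 nt, with 38 reads beside 3 (3.15). The sites at 6048 nt and 8909 nt, which had a peak in all lists, ranged between -1.40 and 1.0. The lowest EEF2 peak had a log2 fold of -1.72, in VIM replicate 2.

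**Figure D3:**
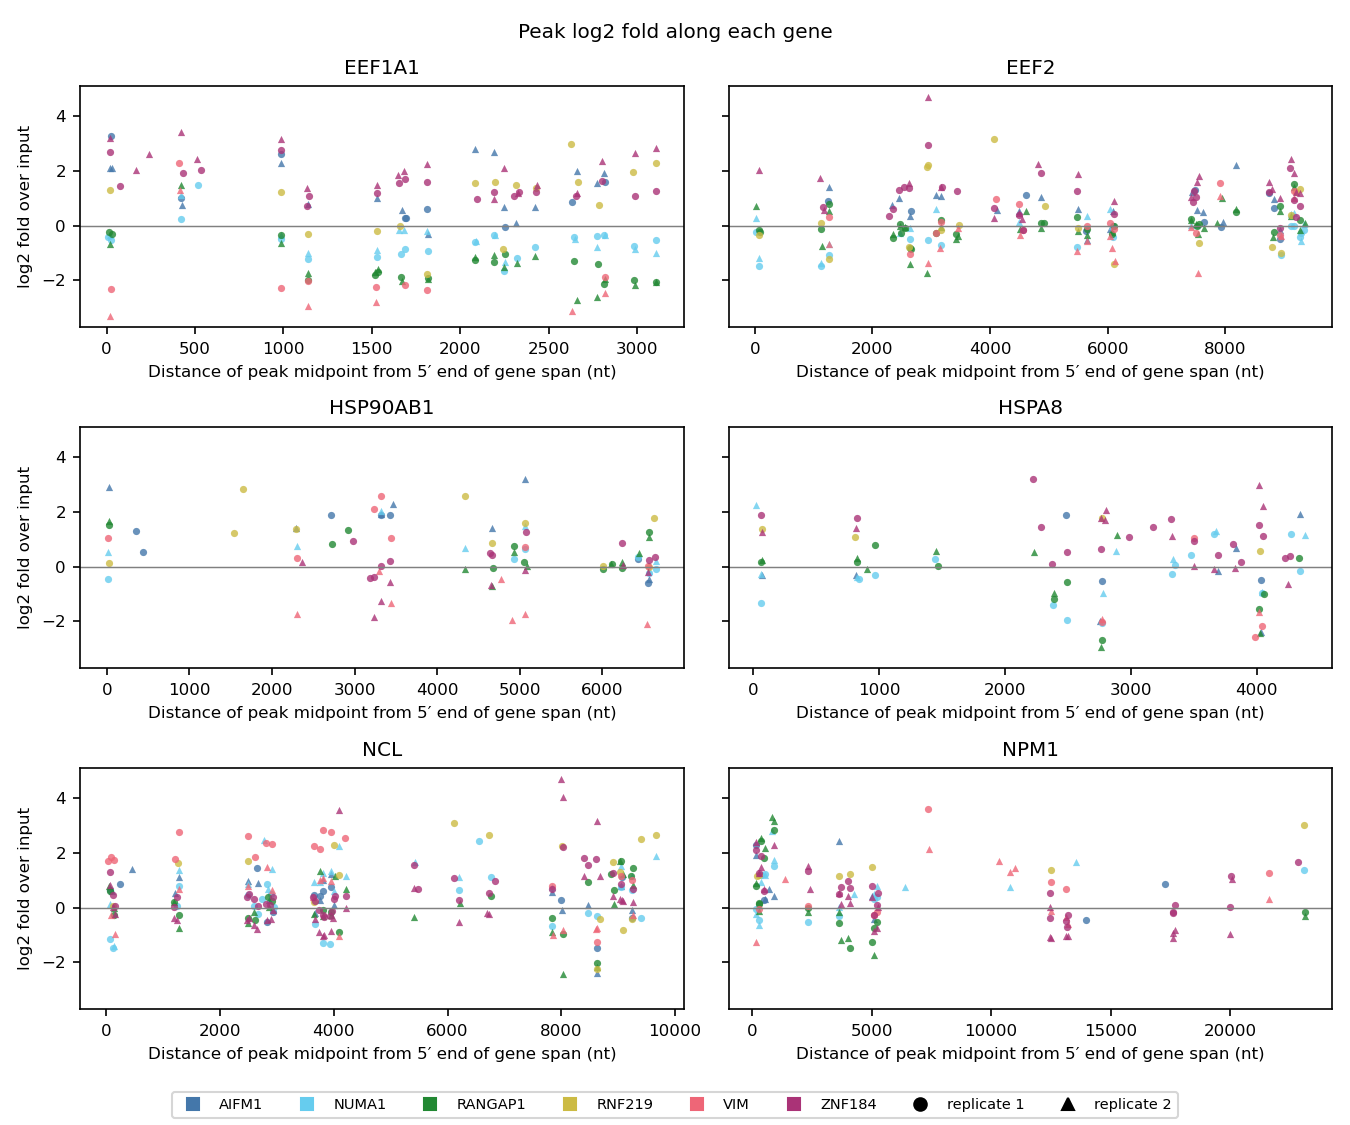
Log2 fold over input (vertical axis) of each peak against the distance of its midpoint from the 5′ end of the gene span in nt (horizontal axis), 1 panel per gene. Colours are proteins, circles replicate 1 and triangles replicate 2. The ZNF184 replicate 2 peaks at 4.69 stand out at 2919 nt in EEF2 and 7978 nt in NCL, counted to the near edge of the peak.

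HSPA8, the constitutive cytosolic member of the HSP70 chaperones, resembled EEF1A1. Its median log2 fold was -2.09 and -1.79 in VIM, compared with 1.0 and 1.33 in ZNF184, 1.22 in RNF219 and between -0.48 and 0.29 in the 6 libraries of AIFM1, NUMA1 and RANGAP1. VIM was below and ZNF184 and RNF219 above all of those 6. The centred value averaged -4.18 ± 0.27 in VIM (SD, n = 2), against -1.66 to 0.14 in the other libraries. That difference was -3.38 (-4.14 to -2.62, limma, adjusted p = 4.65e-05), with 0.869% of features lower, and it passed under all 16 alternatives. RNF219 was higher by 1.80 (0.79 to 2.82, limma, adjusted p = 0.0150), on a single library that no alternative could leave out. ZNF184 was higher by 1.52 (0.76 to 2.28, limma, adjusted p = 0.00676), a call lost without ZNF184 replicate 2 (1.39, limma, adjusted p = 0.0908).

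The HSPA8 values in VIM rest on 4 peaks in replicate 1 and 2 in replicate 2. Most of these lie at 2 sites that had a peak in every list. At 2709 nt (hg19 chr11:122930040-122930135, minus strand) the log2 fold was -2.02 and -1.93 in VIM, -2.67 and -2.92 in RANGAP1, -2.07 and -0.98 in NUMA1 and -0.53 and -1.99 in AIFM1, whereas it was 0.63 and 2.06 in ZNF184 and 1.77 in RNF219. Both RANGAP1 values were below both VIM values there, and the RANGAP1 replicate 2 piece was the lowest HSPA8 peak. At 3961 nt the values were -2.17 and -1.64 in VIM, -1.0 and -2.44 in RANGAP1, -0.96 and -0.95 in NUMA1 and -0.48 and -2.41 in AIFM1. ZNF184 had 1.51 and 2.98 there and RNF219 0.58. With only these 2 sites, HSPA8 was lower in RANGAP1 as well, by -1.92 (limma, adjusted p = 0.00555), where the fit on all its peaks gave 0.020 (limma, adjusted p = 0.973). The VIM difference at the 2 sites was -2.61. Among the features fitted on shared sites, 9.28% were lower than HSPA8 in the VIM comparison and 2.32% in that of RANGAP1. The single significant HSPA8 peak was at 2204 nt in ZNF184 replicate 1, with 20 reads beside 3 (3.18, interval 1.43 to 5.58).

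HSP90AB1, the constitutive cytosolic HSP90 gene, split the VIM replicates. Its median log2 fold was 1.03 and -1.72 in VIM and 1.28 and 1.90 in AIFM1. RNF219 gave 1.29, ZNF184 0.35 and -0.38, RANGAP1 0.45 and 0.18 and NUMA1 0.08 and 0.67. All 7 peaks of VIM replicate 2 were below input, and all 7 of VIM replicate 1 above it. The centred mean of VIM was -2.58 ± 1.88 (SD, n = 2), within which replicate 1 overlapped the other libraries, and the difference was -2.10 (-3.33 to -0.88, limma, adjusted p = 0.0142). Without VIM replicate 2 it was -0.77 (limma, adjusted p = 0.345), without centring -1.06 (limma, adjusted p = 0.144) and on peaks with at least 10 input reads -0.60 (limma, adjusted p = 0.392).

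AIFM1 was the highest protein on HSP90AB1, by 1.79, and did not pass (limma, adjusted p = 0.0518). This value rests on 7 peaks in each AIFM1 library with a median of 1 input read, and it turned to -0.29 on peaks with at least 10 input reads and to -0.20 on the site shared by all lists. On that shared site RANGAP1 was higher by 1.37 (limma, adjusted p = 0.0369), where the fit on all peaks gave -0.23 (limma, adjusted p = 0.822). HSP90AB1 had no significant peak. Its highest, at 5021 nt in AIFM1 replicate 2, had a log2 fold of 3.18 with 17 eCLIP reads beside 1 input read and a -log10 p of 2.21. Its lowest was -2.10, in VIM replicate 2 at 6524 nt, where VIM replicate 1 stood at 0.03 and RANGAP1 at 1.28 and 1.09.

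**Figure D4:**
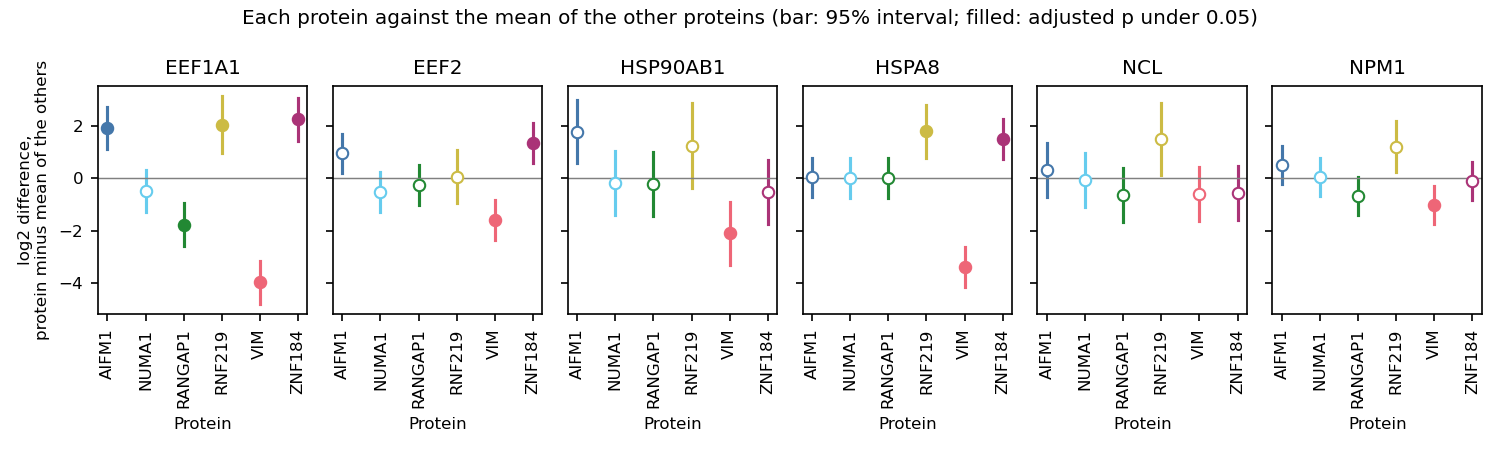
Difference of each protein from the mean of the other 5 proteins in the centred median log2 fold (vertical axis), by protein (horizontal axis) and gene (panels). Bars are 95% intervals from limma, and filled points have an adjusted p under 0.05. VIM is filled and below 0 in all panels except NCL, and no point of NUMA1 is filled.

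NCL, which encodes nucleolin, had the most peaks (238) and no protein that passed. Its median log2 fold was highest in VIM replicate 1 (1.99) and RNF219 (1.62), 1.15 in NUMA1 replicate 2 and between -0.22 and 0.53 in the other 8 libraries. On the centred scale replicates differed by 1.86 in VIM and 1.13 in NUMA1. There RNF219 was the highest, 1.50 above the other proteins (limma, adjusted p = 0.0906), and RANGAP1 the lowest, by -0.63 (limma, adjusted p = 0.418). The RNF219 difference was 0.152 on peaks with at least 10 input reads (limma, adjusted p = 0.850) and 0.122 on sites with a peak in all lists (limma, adjusted p = 0.908). The interval of RANGAP1 ran from -1.67 to 0.40 and that of VIM from -1.64 to 0.43.

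Within NCL the proteins peaked at different places. In the 3′ part, the site at 7977 nt (hg19 chr2:232321153-232321228, minus strand) had 2.19 and 4.69 in ZNF184 and 2.24 in RNF219, against -0.95 and -2.44 in RANGAP1, -0.82 in VIM replicate 2 and 0.28 and -0.10 in AIFM1. Its 2 adjacent significant pieces in ZNF184 replicate 2 had 118 reads beside 7 (4.69, interval 3.60 to 6.03) and 148 beside 14 (4.01). At 8579 nt ZNF184 stood at 1.79 and 3.17 and the 8 other lists with a peak between -2.38 and -0.32. The replicate 2 peak there had 135 reads beside 23 and was significant. Whether these or the NCL sites below lie on SNORA75, SNORD20 or SNORD82, which RefSeq places inside NCL, was not tested.

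At some sites closer to the 5′ end VIM replicate 1 was the highest. At 1177 nt, 3627 nt and 3929 nt VIM replicate 1 had 2.76, 2.84 and 2.76, VIM replicate 2 had 0.68, 1.08 and 0.96, ZNF184 replicate 1 had 0.38, 0.40 and 0.41, and ZNF184 replicate 2 had -0.40, -0.41 and -0.37. The VIM replicate 1 pieces had 67 to 77 eCLIP reads beside 48 to 55 input reads, so the fold, not the p, kept them short of the threshold. With the NCL median of each library subtracted, VIM replicate 1 was not the highest at 3627 nt and 3929 nt. It had 0.85 and 0.77 there, against 1.35 and 1.15 in RANGAP1 replicate 2. At 1177 nt it had 0.76, beside 0.75 in NUMA1 replicate 1. Other sites nearby did not follow the order of the folds. A narrow one at 4064 nt was high in ZNF184 replicate 2, with 92 reads beside 12 (3.55), and had 2.25 in NUMA1 replicate 2, against -0.90 in RANGAP1 replicate 1 and -1.03 in VIM replicate 2. At the 5′-most site, 9 nt from the end and with a peak in all lists, ZNF184 had 1.28 and 0.81 and VIM 1.84 and -0.26. The lowest NCL peak, -2.44, was of RANGAP1 replicate 2.

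NPM1, which encodes nucleophosmin, had the narrowest range over libraries, 2.05 on the centred scale. Its median log2 fold was 0.38 and 0.66 in VIM and 1.22 in RNF219. AIFM1 gave 0.57 and 0.42, NUMA1 0.35 and 0.75, ZNF184 0.53 and 0.12 and RANGAP1 -0.02 and -0.15. The VIM difference was -1.03 on the centred scale (-1.76 to -0.29, limma, adjusted p = 0.0379) and turned to 0.021 without centring (limma, adjusted p = 0.960). It passed under 7 of 14 alternatives and was lost without either VIM replicate (limma, adjusted p = 0.198 and 0.0794), without either RANGAP1 replicate (adjusted p = 0.0806 and 0.0637), without NUMA1 replicate 2 (adjusted p = 0.0644) and without ZNF184 replicate 1 (adjusted p = 0.0536). RNF219 was the highest protein, by 1.21 (limma, adjusted p = 0.0593).

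RANGAP1 was high on NPM1 in a single stretch, the sites between 367 and 886 nt from the 5′ end, although its median over the gene was near input. At 485 nt it had 1.81 and 2.15, while NUMA1 had 1.22 and 1.19, AIFM1 0.28 and 0.32 and ZNF184 0.59 and 0.66. At 886 nt (hg19 chr5:170815594-170815658, plus strand) it had 2.81 and 3.15, with 1.51 and 1.72 in NUMA1 and 2.28 in ZNF184 replicate 2. The replicate 2 peak had 20 reads beside 4 and was significant (interval 1.57 to 5.16). That of replicate 1 had 19 beside 4 and was short of the fold. The neighbouring peak at 824 nt was significant in RANGAP1 replicate 2 on 11 reads beside 2 (3.29). VIM and RNF219 had no peak at 485 or 886 nt. Further along, at 5081 nt, RANGAP1 was below input at -0.76 and -1.71, and -1.71 was the lowest of the NPM1 peaks. At the site at 149 nt ZNF184 had 2.08 and 2.40 and AIFM1 2.28 and 1.90, against -1.24 in VIM replicate 2 and -0.07 and -0.25 in NUMA1. A significant RNF219 peak lay near the 3′ end, at 23082 nt, with 23 reads beside 2 (3.01). The highest NPM1 fold, 3.60 in VIM replicate 1 at 7364 nt, rested on 5 reads beside 2 and was not significant, and VIM replicate 2 had 2.13 there.

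Counted by protein, VIM was lower on 5 of the 6 genes, where 23.8% of the 1381 features were lower and 4.56% higher in VIM. ZNF184 was higher on EEF1A1, EEF2 and HSPA8 (25.1% of features higher, 2.82% lower), RNF219 on EEF1A1 and HSPA8 (6.81% higher, 22.1% lower) and AIFM1 on EEF1A1 (12.4% higher, 1.23% lower). RANGAP1 was lower on EEF1A1 (3.55% of features lower, 7.97% higher), and NUMA1 passed on 0 of the 6, in limma, where 0.29% of features were called higher, 0.434% lower and 295 had an unadjusted p under 0.05. For VIM and ZNF184 the background share is thus large. In the VIM comparison 7.31% of features were lower than HSP90AB1 and 26.1% lower than NPM1. In the ZNF184 comparison 83.9% were lower than HSPA8 and 94.0% lower than EEF1A1. Over all features the median difference was -0.34 for VIM, 0.47 for ZNF184, -0.58 for RNF219, 0.32 for AIFM1, 0.18 for RANGAP1 and -0.18 for NUMA1. Without centring the median of VIM was 0.71, and its split of called features was 453 higher and 106 lower, compared with 63 and 329 with centring. For AIFM1 the split was 38 and 34 without centring and 171 and 17 with it. The VIM differences of EEF1A1 and HSPA8 kept their direction and their call under both scalings.

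Across the 11 libraries the centred values of EEF1A1 went with those of EEF2 (Pearson r 0.92) and HSPA8 (0.86), and those of HSP90AB1 with NCL (0.79), while EEF2 and NCL shared little (0.27). These correlations describe libraries that share their centring and, within a protein, their input. Replicates of a protein ranked the overlapping peaks of the 6 genes alike, with Spearman's rho between 0.704 (63 peaks, NUMA1) and 0.928 (80 peaks, RANGAP1), but VIM replicate 1 exceeded replicate 2 by a median of 1.05 over 41 peaks.

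Reads of EEF1A1, NPM1, HSPA8 and NCL are uncertain where near-identical copies exist. RefSeq names 50 pseudogenes after EEF1A1, 50 after NPM1, 20 after HSPA8 and 2 after NCL, and how the mapping treated reads with several matches was not stated in the labels. RefSeq also places SNORD37 inside EEF2, SNORD14C, SNORD14D and SNORD14E inside HSPA8 and SNORA75, SNORD20 and SNORD82 inside NCL. Which peaks fall on exons, introns or these small nucleolar RNAs was not analysed here, as no hg19 gene annotation was used.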

How the data were processed

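eCLIP peak lists of 11 libraries of 6 proteins were used. Per the submitters' processing notes, cutadapt, STAR, GATK, Picard, SAMtools and the build hg19 were used. The peak caller and duplicate removal were not given in the sources used. Each peak has the -log10 p against the size-matched input deposited by the authors and their deposited log2 fold over input. Peaks were called per library.

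Each fold is a ratio of whole reads times 1 constant per library. Ratios were found for at least 99.8% of the folds (tolerance 1e-09 in log2), and an exact or chi-square p then matched at least 99.6% of the p-values above 0 and under 400 to within 0.005 on the log10 scale. On 3 simulated lists of 2000 peaks, 98.4% to 100% of the settled reads were right. Per feature, the median log2 fold minus the library's median was fitted with limma 3.58.1 in R 4.3.3. In a simulation of the ZNF184 comparison over 1381 features, shifts of 1, 2 and 3 were recovered in 16%, 97.5% and 100% of cases, and 5.88%, 8.88% and 5.21% of the calls were false. The simulation drew independent normal noise of the fitted spread, with no error shared through an input, and shifted ZNF184 only. Its rates need not hold for the real comparisons, least of all for RNF219 with its single library. Intervals on folds are exact binomial at 95%.

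Named were all called protein differences, the highest and lowest protein per gene, and up to 3 significant peaks and the lowest peak per gene. Other peaks and sites were chosen after their values were seen. The genes and lists were chosen with earlier results of these data known. The 6 inputs have no lists and enter only through the folds.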

Additional observations from a re-analysis of the deposited data

How the results depend on the processing

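The VIM and ZNF184 differences of EEF1A1 and the VIM difference of HSPA8 passed under every alternative in which they could be tested. For RNF219, with 1 library, no alternative varied its own value. With at least 10 input reads (205 features tested, without EEF1A1 and NPM1) called features numbered 52 for AIFM1, 0 for NUMA1, 51 for RANGAP1, 49 for RNF219, 56 for VIM and 92 for ZNF184, against 188, 10, 159, 399, 392 and 385 of 1381. On sites with a peak in all 11 lists (474 features, none in NPM1, chosen after seeing the data) NUMA1 had 21, RNF219 217 and VIM 233. Without centring AIFM1 had 72, and with the mean of peaks NUMA1 had 25. Leaving out a library gave 0 to 258 called features for AIFM1 (0 without AIFM1 replicate 2), 4 to 31 for NUMA1, 1 to 233 for RANGAP1 (5 and 1 without its replicate 1 or 2), 305 to 522 for RNF219, 257 to 422 for VIM and 135 to 485 for ZNF184 (135 without its replicate 2). The AIFM1 difference of HSP90AB1 turned to -0.29 and -0.20 under the first 2 settings, and the VIM difference of NPM1 to 0.021 without centring. On shared sites the RANGAP1 difference of HSP90AB1 turned to 1.37 (limma, adjusted p = 0.0369). The cause was not tested.

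Significant peaks at a log2 fold of at least 2 numbered 11 in EEF1A1, 9 in EEF2, 3 in HSP90AB1, 4 in HSPA8, 15 in NCL and 9 in NPM1. At 4 or more there were 0 in EEF1A1, 1 in EEF2, 0 in HSPA8, 2 in NCL and 0 in NPM1, and with a -log10 p of at least 5 there were 0 in HSPA8 and 1 in NPM1. Leaving out a library gave 0 to 3 in EEF1A1, 1 to 2 in EEF2, 0 in HSP90AB1, 0 to 1 in HSPA8, 0 to 4 in NCL and 1 to 3 in NPM1, the lowest without ZNF184 replicate 2 for EEF1A1, EEF2 and NCL, ZNF184 replicate 1 for HSPA8 and RANGAP1 replicate 2 for NPM1.

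The differences between replicates 1 and 2 over the features were little shared between proteins, with correlations between -0.076 and 0.093 over 10 pairs of proteins. This cannot show whether same-numbered libraries were made together, since the centring removes an offset of a whole library. With the replicate number as a block the AIFM1 difference of HSP90AB1 was 1.84 (limma, adjusted p = 0.0463), and no other named call changed. Without VIM replicate 1, VIM replicate 2 or with the mean of peaks, some differences that had missed the threshold passed: AIFM1 on HSP90AB1 (2.06 and 1.52 without VIM replicate 1 or 2), RNF219 on NCL (1.69 without VIM replicate 1, but 0.152 with at least 10 input reads and 0.122 on shared sites) and RNF219 on NPM1 (1.25 without VIM replicate 2 and 1.29 with the mean). Exon against intron and the lists of other translation, chaperone and nucleolar genes were not run, since they need an hg19 annotation.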

Other observations

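Among the 1380 other features, those most like each gene over the 11 libraries by Pearson's r of the centred values were all 10-kb windows, named here by hg19 position only. For EEF1A1 they were chrX:100640001-100650000 on the plus strand (r 0.986) and chr6:33240001-33250000 on the plus strand (0.979). EEF2 was closest to chr6:26100001-26110000 on the plus strand (0.975) and chr19:49120001-49130000 on the minus strand (0.973). The windows chr17:62500001-62510000 (0.962) and chr3:185640001-185650000 (0.936), both on the minus strand, were closest to HSP90AB1. HSPA8 went with chr12:57030001-57040000 on the minus strand (0.935) and chr3:23960001-23970000 on the plus strand (0.926). NPM1 went with chr3:40500001-40510000 on the plus strand (0.958) and chr17:62490001-62500000 on the minus strand (0.934), which adjoins a window of HSP90AB1. NCL had the least alike windows, chr11:130010001-130020000 (0.874) and chr3:42680001-42690000 (0.854), both on the plus strand.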
